A study of Bos taurus with 12 samples.

Results

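The endometrium of contemporary cows was set against that of young cows on Day 15 of the estrous cycle. Of the 12 arrays of the series, 7 entered this comparison, namely those of contemporary cows 1068, 1128 and 1129 and those of young females (YF) 1069, 1070, 1072 and 1127. The arrays were chosen by their titles. Another contemporary cow, 1111, was kept out because its label states that the authors excluded it for a phenotype divergent from that of its group, and its values are given beside the others as a check. The 4 old females (OF) of the series, 0233, 0234, 0245 and 2258, are given in the same way where they bear on a transcript. Every cow was synchronised, and endometrial RNA was hybridised in 1 colour to a custom bovine array, with 1 array per cow. The methods describe the YF as Holstein clones of 1 donor cow, aged 4 to 5 years, primiparous and sampled more than 1 year after calving. The OF were nulliparous clones of the same donor, aged 13 to 14 years. In the clones, intercaruncular tissue was taken on the side of the corpus luteum. For the contemporary cows, neither the labels nor the methods give the breed, age, parity, clone status or horn. Age, parity, genotype and husbandry can therefore not be told apart in a difference between these groups.

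Day 15 falls in the luteal phase, when progesterone keeps the uterus ready for an embryo and the elongating conceptus of a pregnant cow secretes interferon tau. In a cycling cow with no such signal, the endometrium acquires oxytocin receptors and releases prostaglandin F2 alpha in pulses, which end the life of the corpus luteum. The intercaruncular endometrium holds luminal and glandular epithelium, part of it ciliated, a fibroblast stroma, vessels, and resident T cells, natural killer (NK) cells and macrophages. NK and cytotoxic T cells kill through granules filled with perforin and granzymes, and their lectin-like and NKG2D receptors read ligands on the cells they meet.

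The arrays held probes for 26323 transcripts, of which 19993 were well above background on every array of at least 1 of the groups and were tested. Between 72.5% and 74.5% of probes were well above background on the 7 arrays compared, and no spot was saturated. A level is given as the log2 intensity minus the 75th percentile of its array, averaged over the probes of a transcript, so that 0 is that percentile. A difference is the mean level of contemporary cows minus that of YF, and levels of a transcript are always listed in the order 1069, 1070, 1072, 1127 for YF and 1068, 1128, 1129 for contemporary cows. The precision is set by the number of cows, and because a biopsy mixes cell types, fewer cells of a type and less RNA per cell cannot be told apart. The endometrial identity of the biopsies was checked with EPCAM and KRT8, of epithelium, and DCN and COL1A1, of stroma. EPCAM lay between 2.50 and 4.51 and DCN between 3.23 and 4.24 on the 7 arrays, and KRT8 and COL1A1 were also above the 75th percentile of each of them. Cow 1129 stood apart in small RNAs. The median level of 62 U1 spliceosomal RNA transcripts was 0.44 in contemporary cow 1129, against 2.69 to 3.62 in the other 6 cows compared. A U2 transcript measured -0.85 in cow 1129 and 1.10 to 1.90 in the other 6. For a U6 transcript (ENSBTAT00000063364) the values were 0.27 and 0.92 to 1.25, and for 7SK RNA -3.08 and -2.55 to -2.07. All 3 contemporary cows compared shared slide 2 with YF 1069 and 1127, while YF 1070 and 1072 were on slide 1, so slide and group overlapped in part.

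Contemporary cows and YF differed little in most transcripts. The median difference over the 19993 transcripts tested was -0.02, with 45.4% higher and 54.6% lower in contemporary cows, and 93.2% differed by less than 1.5-fold. The spread among the cows of a group was of the same size as the distance between the groups. The median absolute difference of a pair of cows was 0.217 to 0.375 among the 6 pairs of YF, 0.240 to 0.369 among the 3 pairs of contemporary cows, and 0.216 to 0.409 among the 12 pairs that joined the groups. No transcript passed an adjusted p of 0.05 (limma, two-sided, Benjamini-Hochberg, 0% of those tested), and the smallest adjusted p was 0.0664. Before adjustment, limma placed 606 transcripts (3.03%) within the 0.05 threshold, of which 257 were higher (1.29%) and 349 lower (1.75%). A change of at least 1.5-fold was met by 399 of them, 177 higher (0.885%) and 222 lower (1.11%). Every contemporary cow was above every YF for 302 transcripts (1.51%) and below every YF for 463 (2.32%), which makes 765 without overlap (3.83%). An exact permutation test of 3 against 4 cows cannot give a two-sided p below 0.0571. FCROS, the rank method that the study names for its own comparison, made 1113 calls over all 26323 transcripts, 510 higher and 603 lower. Its thresholds are on fold and f-value. The f-value is scaled to the spread of the ranks in the same data, so some transcripts pass it in any data. The count is therefore not comparable with one at an adjusted p. The division into higher and lower moved with the centring of the arrays: by medians, the 1.5-fold calls split into 235 higher and 189 lower and those without overlap into 388 and 308, and by quantiles into 218 and 188 and into 394 and 396.

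Because nothing passed the adjusted threshold, the transcripts named below are described by their values, and "higher" and "lower" refer to the means of these 7 cows. The 12 transcripts with a gene symbol that were highest and the 12 that were lowest in contemporary cows were taken from those without overlap of the groups and with an unadjusted p up to 0.05, 173 higher (0.865%) and 238 lower (1.19%). Their separation is thus part of how they were chosen. Their differences ran from 1.85 to 3.76 among the higher and from -3.92 to -1.80 among the lower.

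**Figure D1:**
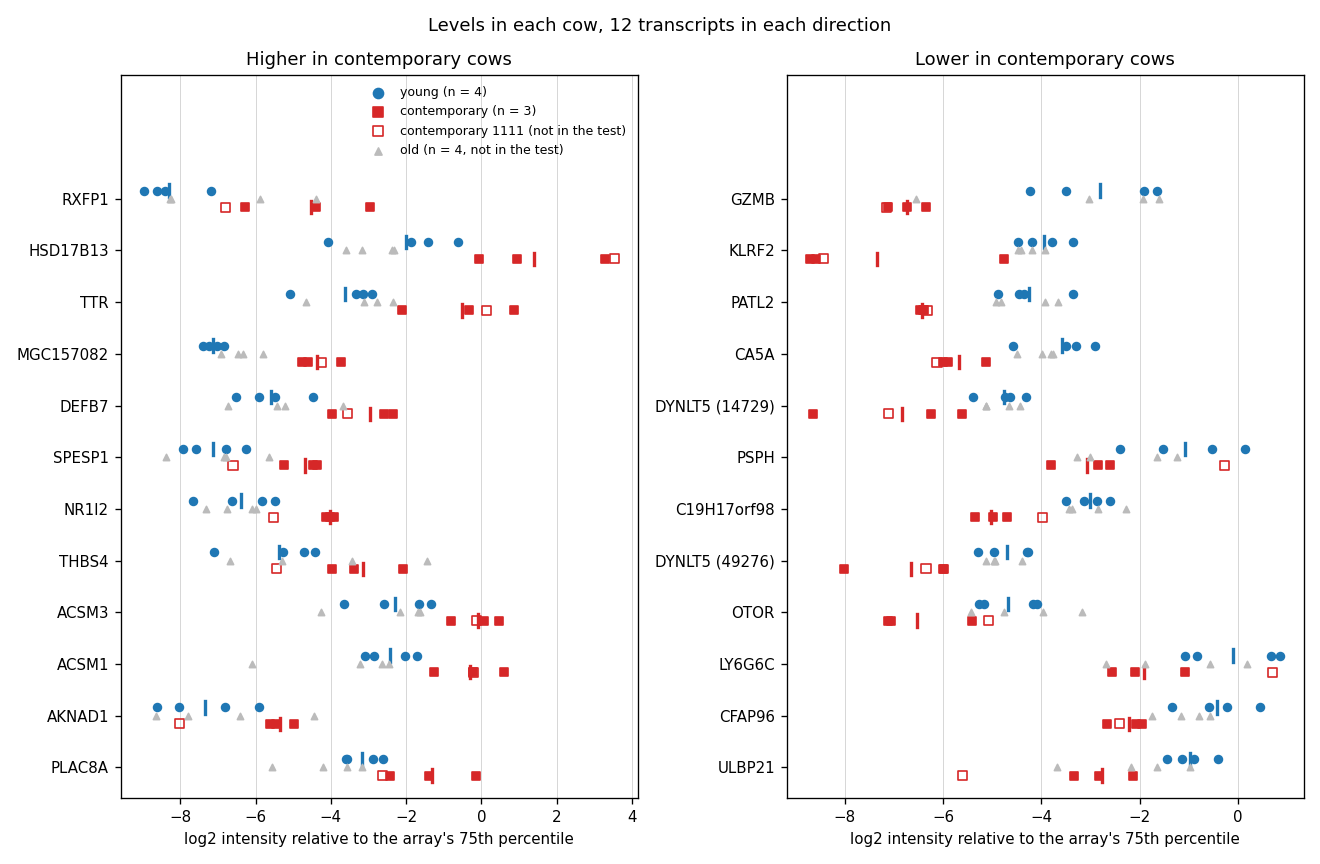
Level in each cow (log2 intensity relative to the 75th percentile of the array) of the 12 highest and 12 lowest named transcripts. Filled symbols are the 4 YF and 3 contemporary cows compared, short lines their means, open squares contemporary cow 1111 and triangles the 4 OF, which were not in the test. The figures after DYNLT5 tell its transcripts apart, RXFP1 is highest in difference at 3.76 and GZMB lowest at -3.92, and cow 1111 lies with the YF for some transcripts, such as PSPH, and with the contemporary cows for others, such as GZMB.

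Among receptors, RXFP1 and NR1I2 were higher in contemporary cows. RXFP1 (chr17:41318286-41446129 on UMD 3.1), the receptor of relaxin, measured -7.18, -8.62, -8.42 and -8.96 in YF and -6.27, -2.95 and -4.39 in contemporary cows. The YF lay near the dimmest signals of the arrays, and contemporary cow 1128 was the brightest of the 7. Only 1 of 4 YF was above background, so the difference of 3.76 (SE 0.75), with an unadjusted p of 0.00118 and an adjusted p of 0.637 by limma, is largely one against background signal and gives no exact fold. The OF measured -8.26, -5.89, -8.26 and -4.40, so that OF 0234 and 2258 reached levels of the contemporary cows, and cow 1111 measured -6.79. The 2 probes of RXFP1 are shown because they carry the highest of the named differences and were detected in different numbers of cows.

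RXFP1 probe 1: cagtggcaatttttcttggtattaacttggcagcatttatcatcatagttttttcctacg
RXFP1 probe 2: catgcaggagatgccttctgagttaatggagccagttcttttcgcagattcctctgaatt

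Probe 1 was above background in 2 of 3 contemporary cows and in 0 of 4 YF. It measured -8.64, -4.10 and -5.62 in contemporary cows. Cow 1068 was thus at background signal like the YF, and no minimum fold is given. Probe 2 measured -3.90, -1.79 and -3.16 in contemporary cows and -6.23, -8.59, -8.39 and -8.94 in YF, where it was above background only in YF 1069. NR1I2, the pregnane X receptor, which senses steroids and xenobiotics, had nearly equal levels of -4.02, -3.91 and -4.13 in contemporary cows and -6.63, -5.83, -7.66 and -5.48 in YF. The difference was 2.38 (SE 0.48) (limma unadjusted p = 0.00121, adjusted p = 0.639). Only 2 of the 4 YF were above background for NR1I2, and cow 1111 measured -5.51, at the top of the YF.

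Several enzymes and carriers of lipids and hormones were higher in contemporary cows. HSD17B13, a hydroxysteroid dehydrogenase of lipid droplets, measured -1.87, -0.61, -4.07 and -1.41 in YF and -0.07, 0.95 and 3.29 in contemporary cows, and 3.54 in cow 1111. Contemporary cow 1129 and cow 1111 stood far above all YF, whereas cow 1068 was close to YF 1070. The difference was 3.38 (SE 0.98), or 10.4-fold (limma unadjusted p = 0.0091, adjusted p = 1). TTR, transthyretin, carries thyroxine and the retinol-binding protein in blood. It measured -5.09, -3.14, -2.90 and -3.34 in YF, -0.32, -2.10 and 0.87 in contemporary cows and 0.14 in cow 1111, 8.57-fold higher in contemporary cows than in YF. The lowest contemporary cow for TTR was 1128, and the lowest YF was 1069. ACSM1 and ACSM3, neighbouring genes on chromosome 25 for mitochondrial enzymes that activate medium-chain fatty acids, were 4.39-fold and 4.63-fold higher. ACSM1 measured -3.09, -2.03, -2.86 and -1.71 in YF and -1.26, 0.62 and -0.22 in contemporary cows, a difference of 2.13 (SE 0.50). ACSM3 measured -3.66, -2.58, -1.65 and -1.33 and -0.82, 0.47 and 0.06, a difference of 2.21 (SE 0.57). Cow 1128 was the brightest of the 7 for both genes, and cow 1111 lay inside the range of the contemporary cows for both, at -0.21 and -0.13.

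The other higher transcripts were of mixed function. THBS4, a thrombospondin of the extracellular matrix, measured -4.70, -5.28, -4.41 and -7.11 in YF and -2.09, -3.98 and -3.40 in contemporary cows, a difference of 2.22 (SE 0.70). Cow 1111 was at -5.45, among the YF, and without cow 1068 the difference was 1.69 and no longer passed the unadjusted threshold. SPESP1, a protein of the sperm equatorial segment, was 2.45 higher and above background in 1 of 4 YF. AKNAD1 was 2.01 higher and likewise above background in 1 of 4 YF. The differences of SPESP1 and AKNAD1 are thus largely against background signal and give no exact fold. With normexp background correction they were 0.63 and 0.40. PLAC8A was 1.85 higher, with levels of -1.40, -2.42 and -0.14 in contemporary cows. MGC157082, an uncharacterised gene (chr18:61318606-61401807), had the second smallest p of all transcripts. It measured -7.03, -7.23, -6.83 and -7.39 in YF and -4.59, -4.78 and -3.74 in contemporary cows, and -4.26 in cow 1111. The difference was 2.75 (SE 0.28), with an unadjusted p of 1.09e-05 and an adjusted p of 0.109 by limma. When cow 1111 was counted with the contemporary cows, its adjusted p was 0.0140. Its probe 1 was above background in 0 of 4 YF and in 3 of 3 contemporary cows, at least 3.68-fold, and its probe 2 gave 1.64.

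GZMB and KLRF2, genes of cytotoxic lymphocytes, headed the lower transcripts. The wider list of T and NK cell genes, given further below, was evenly divided. GZMB (ENSBTAT00000013262, chr21:35264590-35267979) encodes granzyme B, a serine protease of cytotoxic granules. It measured -4.23, -1.90, -3.49 and -1.64 in YF and -6.36, -7.11 and -6.73 in contemporary cows. All 3 contemporary cows lay below the lowest YF, 1069, and differed less among themselves than the YF did. The difference of the mean over both probes was -3.92 (SE 0.62), with an unadjusted p of 0.000271 and an adjusted p of 0.352 by limma. Cow 1111 measured -7.16, and the OF measured -1.60, -3.02, -1.94 and -6.54, so that OF 2258 was at the level of the contemporary cows. Both probes of this transcript are shown, because they give the most negative difference of the named transcripts.

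GZMB probe 1: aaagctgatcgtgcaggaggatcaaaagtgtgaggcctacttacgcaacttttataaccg
GZMB probe 2: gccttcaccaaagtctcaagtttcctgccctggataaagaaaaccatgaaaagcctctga

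Probe 1 was above background in 4 of 4 YF and in 0 of 3 contemporary cows, which makes it at least 9.53-fold lower in the latter. Probe 2 was above background in every cow compared, at -3.60, -1.33, -2.99 and -1.13 in YF and -4.87, -5.76 and -4.86 in contemporary cows, and gave a difference of -2.90. KLRF2 (chr5:100487080-100502771), a lectin-like receptor of NK cells, differed among the contemporary cows themselves. It measured -8.60, -8.71 and -4.76 in them and -3.36, -4.48, -3.79 and -4.19 in YF. Cows 1068 and 1128 were not above background, cow 1111 was at -8.43, and cow 1129 stood closest to the YF. The difference was -3.40 (SE 0.91) (limma unadjusted p = 0.00614, adjusted p = 1). In cows 1068 and 1128 the YF are set against background signal, so the size of the difference is not exact. The 4 OF measured -4.19, -4.47, -3.93 and -4.41, all inside the range of the YF. The probes of KLRF2 are shown because both were not above background in the same 2 contemporary cows.

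KLRF2 probe 1: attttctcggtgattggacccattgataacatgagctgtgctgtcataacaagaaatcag
KLRF2 probe 2: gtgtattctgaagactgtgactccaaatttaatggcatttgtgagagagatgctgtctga

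Probe 1 measured -8.68, -8.78 and -4.79 in contemporary cows and probe 2 measured -8.52, -8.63 and -4.72, against -3.19, -4.48, -3.75 and -4.04 and -3.52, -4.49, -3.84 and -4.33 in YF. ULBP21 (chr9:88273909-88299080) belongs to the UL16-binding proteins, ligands of the activating receptor NKG2D of NK and T cells. It measured -1.13, -0.40, -0.90 and -1.45 in YF and -3.34, -2.14 and -2.83 in contemporary cows, a difference of -1.80 (SE 0.34), and cow 1111 was lower still at -5.60.

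Metabolic and other genes made up the rest of the lower transcripts. CA5A, the mitochondrial carbonic anhydrase, measured -2.90, -3.51, -3.29 and -4.58 in YF and -5.12, -5.89 and -6.01 in contemporary cows, a difference of -2.11 (SE 0.41). Cow 1111 measured -6.13, below all 7 cows. PSPH, phosphoserine phosphatase, which completes the synthesis of serine, measured -1.52, 0.14, -0.52 and -2.39 in YF and -3.80, -2.84 and -2.59 in contemporary cows. Its difference was -2.01 (SE 0.60), but cow 1111 measured -0.26, inside the range of the YF, and within slide 2 alone the difference was -1.12. LY6G6C, a small membrane-anchored protein of the Ly6 family, behaved alike, with -0.84, 0.86, 0.68 and -1.08 in YF, -2.55, -2.09 and -1.08 in contemporary cows and 0.71 in cow 1111. Its difference of -1.81 (SE 0.57) became -0.95 within slide 2. YF 1127 and contemporary cow 1129 measured the same to 2 decimals. Its 2 probes gave -2.87 and -0.76.

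DYNLT5, of the Tctex-type dynein light chains, and CFAP96, a protein associated with cilia and flagella, were both lower. The wider list of ciliated cell genes, given further below, went the other way, with a median of 0.61 and a wide spread among the YF. The 2 transcripts of DYNLT5 share a probe and are 1 locus on chromosome 3, with differences of -2.07 and -1.96. Both were above background in 2 of 3 contemporary cows. ENSBTAT00000014729 measured -8.65, -5.61 and -6.25 in contemporary cows and -4.73, -5.38, -4.64 and -4.32 in YF, with cow 1068 far below the others. Without cow 1068 its difference was -1.16. CFAP96 measured -2.67, -1.94 and -2.07 in contemporary cows and -0.59, -0.21, -1.34 and 0.46 in YF, a difference of -1.80 (SE 0.41). OTOR, otoraplin, a secreted protein first known from the cochlea, measured -5.41, -7.13 and -7.06 in contemporary cows and -4.09, -5.17, -4.17 and -5.26 in YF, a difference of -1.86 (SE 0.50), with cow 1111 at -5.08 among the YF. C19H17orf98 measured -5.36, -4.99 and -4.70 against -2.60, -2.86, -3.13 and -3.49, 3.99-fold lower (limma unadjusted p = 6.37e-05, adjusted p = 0.212).

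In PATL2 the 2 probes of a transcript gave unequal pictures. PATL2 (chr10:104090288-104098110) encodes an RNA-binding protein known from oocytes. It measured -3.35, -4.46, -4.35 and -4.88 in YF and -6.40, -6.39 and -6.47 in contemporary cows, a difference of -2.16 (SE 0.33), and the 3 contemporary cows were within 0.1 of each other. Probe 1 gave -3.65, -5.52, -4.98 and -5.83 in YF and was above background in 0 of 3 contemporary cows, at least 3.09-fold lower. Cow 1111 was also not above background on it, at -8.80, whereas the OF measured -5.89, -4.56, -6.35 and -4.10. Probe 2 gave -3.06, -3.41, -3.71 and -3.94 in YF, -4.06, -3.93 and -3.98 in contemporary cows and -3.83 in cow 1111, a difference of -0.46. On probe 2 the groups overlapped, and the level of the transcript is the mean over both probes.

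**Figure D2:**
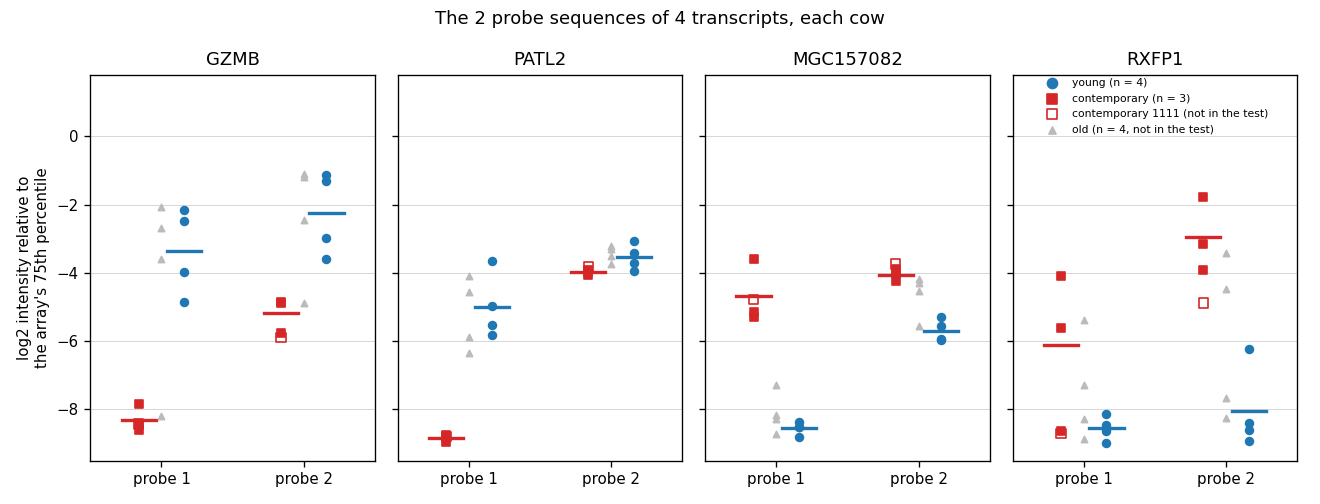
Level in each cow on either probe of GZMB, PATL2, MGC157082 and RXFP1 (log2 intensity relative to the 75th percentile of the array), with means as lines, cow 1111 as open squares and OF as triangles. PATL2 was above background in 0 of 3 contemporary cows on probe 1 and in 3 of 3 on probe 2, where it differed by -0.46, and MGC157082 probe 1 lay between -8.81 and -8.36 in the YF and between -5.30 and -3.60 in the contemporary cows.

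Some of the smallest p-values of the comparison belonged to transcripts with no gene symbol. ENSBTAT00000030481 (chr12:73574915-73692855) had the smallest of all. It measured -3.98, -3.69, -3.93 and -4.02 in YF, -5.73, -5.64 and -5.90 in contemporary cows and -6.27 in cow 1111. The spread inside either group was small beside the distance between them, with means of -5.76 ± 0.13 (SD, n = 3) against -3.90 ± 0.15 (SD, n = 4). The difference was -1.85 (SE 0.16), with an unadjusted p of 3.32e-06 and an adjusted p of 0.0664 by limma. The OF measured -3.46, -3.88, -4.27 and -4.92, of which the lowest was 2258. An overlapping transcript, ENSBTAT00000035482 (chr12:73574462-73704802), differed by -3.15 (SE 0.37), with an adjusted p of 0.212 by limma. It measured -3.07, -2.26, -2.60 and -2.74 in YF and -6.72, -5.16 and -5.60 in contemporary cows. The probes of this transcript are shown, because the array gives it no gene name and the sequence is its identity.

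ENSBTAT00000035482 probe 1: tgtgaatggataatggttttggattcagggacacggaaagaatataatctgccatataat
ENSBTAT00000035482 probe 2: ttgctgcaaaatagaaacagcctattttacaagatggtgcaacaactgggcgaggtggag

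Probe 1 measured -3.59, -2.51, -2.91 and -2.98 in YF and was above background in 1 of 3 contemporary cows. Probe 2 was above background in all 7, at -2.56, -2.02, -2.30 and -2.50 in YF and -6.16, -4.30 and -4.44 in contemporary cows. PROSER1 (chr12:23241975-23272130), a proline- and serine-rich protein elsewhere on chromosome 12, had nearly equal levels in the contemporary cows. They measured -0.80, -0.83 and -0.72, against -2.35, -2.25, -2.20 and -2.88 in YF and -0.61 in cow 1111, a difference of 1.64 (SE 0.20) with an adjusted p of 0.212 by limma. With cow 1111 added to the contemporary cows, PROSER1, MGC157082 and both chromosome 12 transcripts named above passed the adjusted threshold, and they were the 4 that did.

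In a few stretches of the genome, several neighbouring transcripts separated the groups. The genome was divided into windows of 1 Mb by the positions given in the array annotation, and 2434 windows held a transcript tested. A transcript was counted as separated when the groups did not overlap and the unadjusted p was at most 0.05, which held for 411 of 19993 (2.06%), and 2116 windows held none, 269 held 1 separated locus and 5 held at least 4. These windows and those around GZMB, ULBP21 and the chromosome 12 pair were chosen after their values were seen, and neighbours can share a probe, so no test is given. The window with the most was chr18:61000001-62000000, where 8 of 14 transcripts tested were separated and 14 of 14 were higher in contemporary cows. Its median difference was 1.31. Beside MGC157082 it held ENSBTAT00000021266 at 2.45 and ENSBTAT00000020141 at 2.26, both uncharacterised. ENSBTAT00000020141 measured -6.12, -4.94, -5.66 and -5.84 in YF, -2.82, -3.77 and -3.54 in contemporary cows and -2.59 in cow 1111. The named genes at the start of the window, ZNF331 and NLRP12, differed by 0.06 and 0.53.

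The window chr27:5000001-6000000 held beta-defensins, cationic peptides with which epithelia kill microbes. All 13 of its transcripts tested were higher in contemporary cows and 5 were separated, with a median of 0.82. DEFB7 measured -5.49, -4.49, -6.52 and -5.91 in YF and -3.98, -2.58 and -2.35 in contemporary cows, a difference of 2.63 (SE 0.55), and cow 1111 was at -3.56. An uncharacterised transcript that overlaps it, ENSBTAT00000050266, measured -6.97, -6.79, -7.31 and -7.25 in YF and -5.34, -3.24 and -3.16 in contemporary cows, a difference of 3.17 (SE 0.51). Its adjusted p by limma was 0.352. With cow 1068 left out, only cows 1128 and 1129 remained in its group. The difference was then 3.88, with an adjusted p of 0.0112 by limma. EBD, the enteric beta-defensin, which the array describes as defensin beta 1, differed by 1.61 (SE 0.21). It was dim in YF, at -7.45, -7.04, -7.39 and -7.34, and above background in 3 of the 4. Contemporary cows measured -5.28, -5.82 and -5.99, and cow 1111 measured -2.58, far above both groups. LAP, the lingual antimicrobial peptide, differed by 0.15, and DEFB5 by 0.45, neither without overlap.

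Around GZMB on chromosome 21, 9 of 9 transcripts tested between LOXL1 and STXBP6 (chr21:35112322-35267979) were lower, by -3.92 to -0.71. Of these, 7 had an unadjusted p up to 0.05, against 1.75% of all transcripts in that direction, and 3 did not overlap (2.32%). The 9 include GZMB itself, around which the stretch was drawn. The transcripts next to GZMB were uncharacterised in the array annotation, and 6 of the 12 tested in this window carried a probe of another transcript. All 6 lie among the 9, so these counts are not of independent transcripts. ENSBTAT00000017359, which shares a probe, measured -2.05, -0.45, -0.90 and -0.58 in YF, -4.10, -2.10 and -2.71 in contemporary cows and -4.09 in cow 1111. A second, brighter transcript with the symbol GZMB (ENSBTAT00000051876) measured -0.61, 0.70, 0.25 and 0.57 in YF and -1.92, -0.57 and -1.03 in contemporary cows, a difference of -1.40 (SE 0.41) with overlap of the groups. The flanking genes LOXL1 and STXBP6 differed by 0.01 and -0.09. On chromosome 9, ENSBTAT00000016352 beside ULBP21 differed by -1.59 (SE 0.41), while RAET1G, an NKG2D ligand of the same window, differed by -0.04. On chromosome 5, the lectin-like receptors CLEC1B (ENSBTAT00000053034) and CLEC12A were higher by 1.18 and 0.60 in the window where KLRF2 was lower. That CLEC1B transcript measured -8.88 to -8.26 in YF, near the dimmest signals of the arrays. The brighter CLEC1B transcript (ENSBTAT00000030538) differed by 0.85 with overlap of the groups. The lectin-like receptors KLRK1, KLRD1 and KLRB1 of the same window differed by -0.11, -0.39 and -0.11, all with overlap. The window chr18:65000001-66000000, rich in zinc finger genes, held 4 separated transcripts of 36 tested, all 4 lower. Of the 36, 10 were higher and 26 lower, with a median of -0.14. ZNF134 (ENSBTAT00000006170) was separated at -0.81, with -3.69, -2.70 and -2.52 in contemporary cows. Its overlapping transcript ENSBTAT00000064641 differed by -0.87 (SE 0.38) with overlap of the groups.

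The window chr3:54000001-55000000 held the guanylate-binding proteins, GTPases that interferon gamma induces and that act against intracellular microbes. Of its 16 transcripts tested, 14 were lower in contemporary cows, with a median of -0.61, and the 4 separated ones were uncharacterised in the array annotation. The one with the smallest p, ENSBTAT00000056911, measured -3.26, -2.81, -3.33 and -3.56 in YF, -4.65, -4.68 and -4.29 in contemporary cows and -5.02 in cow 1111, a difference of -1.30 (SE 0.22). Among the named members, GBP4 differed by -1.15 (SE 0.47), GBP1 by -0.95 (SE 0.43), GBP5 by -0.57 (SE 0.34) and GBP6 by 0.08 (SE 1.08), all with overlap of the groups.

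**Figure D3:**
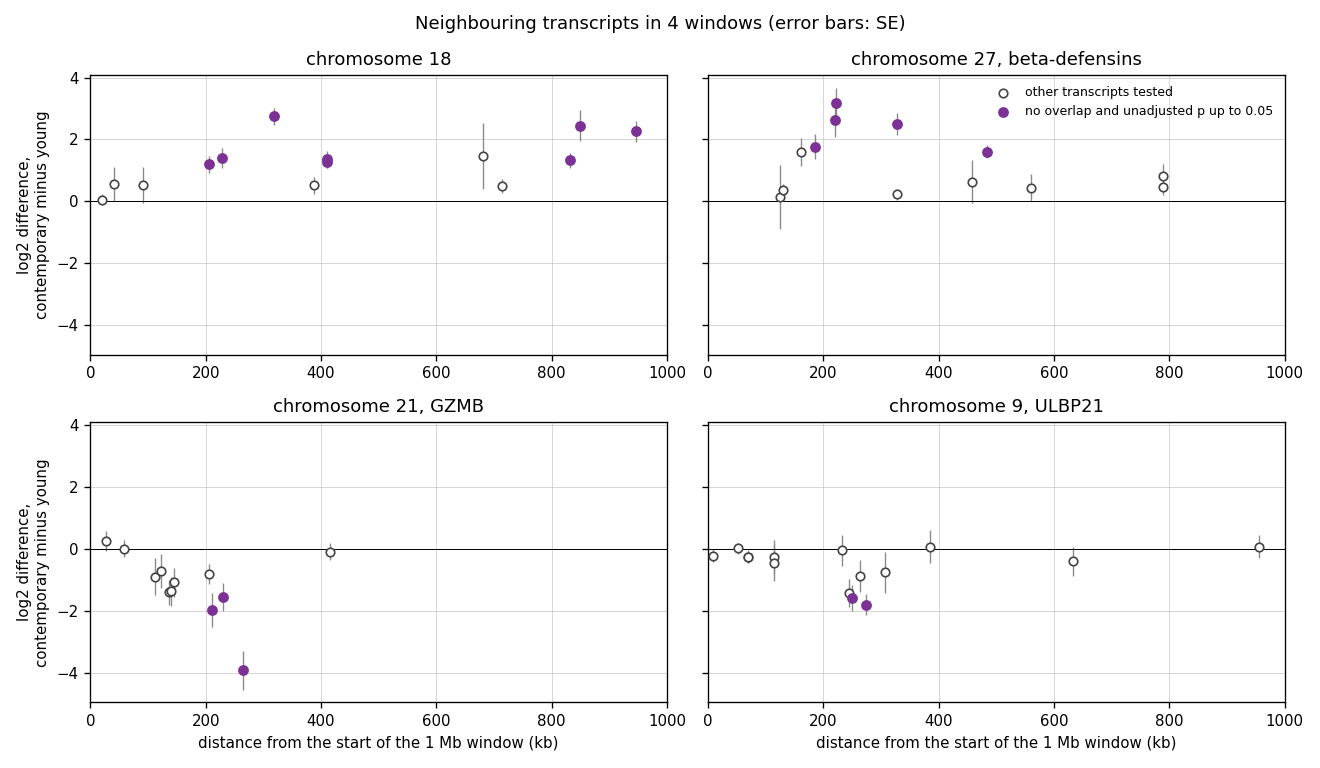
Difference of each transcript tested (log2, contemporary minus YF, error bars SE) by its distance from the start of 4 windows of 1 Mb. Filled points did not overlap and had an unadjusted p up to 0.05. On chromosome 18 and chromosome 27 all points lie above 0, and on chromosome 21 the 9 transcripts between LOXL1 and STXBP6 lie below it.

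The wider list of T and NK cell genes was evenly divided over the 7 cows. Of 24 T and NK cell genes tested, 12 were higher and 12 lower, with a median of -0.02, against -0.02 for all transcripts tested. On slide 2 alone 16 of 24 were higher, with a median of 0.14. CD3E, a chain of the T cell receptor complex, differed by 0.04 (SE 0.32), NKG7, of cytotoxic granules, by 0.15 (SE 0.26), and PRF1, perforin, by 0.01 (SE 0.28). GZMA, granzyme A, measured -6.64, -6.54 and -6.71 in contemporary cows and -6.38, -6.47, -6.14 and -6.26 in YF, lower without overlap by -0.31 (SE 0.15) but with an unadjusted limma p of 0.0726. The members with an unadjusted p up to 0.05 were GZMB, by its brighter transcript, and KLRC1. Of all transcripts, 3.03% reached that threshold. KLRC1 is an NK cell receptor of the NKG2 family and measured -6.72, -5.54, -4.69 and -5.04 in YF, -2.98, -5.01 and -3.34 in contemporary cows and -2.35 in cow 1111, a difference of 1.72 (SE 0.61) with overlap of the groups.

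Genes of antigen presentation by MHC class II were higher in contemporary cows, though not in all of the cows to the same degree. Class II molecules display peptides from outside the cell to helper T cells. Of 12 members tested, 12 were higher and 0 lower, with a median of 0.50. An unadjusted p up to 0.05 was reached by 5, against 1.29% of all transcripts in that direction, and 4 did not overlap (1.51%). BOLA-DRA, the alpha chain of DR, measured 3.11, 2.90, 3.16 and 3.06 in YF, 3.39, 3.64 and 3.51 in contemporary cows and 3.48 in cow 1111. Its difference was 0.45 (SE 0.15). BOLA-DRB3, the main beta chain of DR, differed by 0.43 (SE 0.14), with 3.65, 3.63 and 3.68 in contemporary cows against 3.28, 3.22, 3.29 and 3.13 in YF. CIITA, the master regulator of class II transcription, differed by 0.56 (SE 0.24), BOLA-DOA by 0.55 (SE 0.20), and CD74, the invariant chain, by 0.55 (SE 0.28) with overlap. BOLA-DQB1, of the DQ genes, which are polymorphic and vary in copy number between cattle, measured 0.16, 1.34 and 2.68 in contemporary cows and 0.02, 0.09, 0.21 and -0.03 in YF. The median deviation of the 12 members from the YF mean was -0.06, 0.52 and 0.70 in contemporary cows 1068, 1128 and 1129 and -0.06, 0.07, 0.12 and -0.10 in the YF, so that cow 1068 stayed with the YF. The median ran from 0.38 without cow 1129 to 0.57 without cow 1068. Among 19 class I and peptide loading genes the median was 0.10. JSP.1, a class I heavy chain, was higher without overlap, at 4.83, 4.91 and 5.14 against 3.91, 4.46, 4.22 and 3.98, and cow 1111 measured 4.11.

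Other immune cell genes gave smaller or less even shifts. Of 20 macrophage and dendritic cell genes, 18 were higher with a median of 0.31, and 2 were separated, against 0.865% of all transcripts in that direction. These were VSIG4, a complement receptor of tissue macrophages, at 0.51 (SE 0.16), and SPI1, the transcription factor PU.1, at 0.59 (SE 0.25). Of the defining macrophage markers, CD14 and CD68 differed by 0.26 and 0.47, and CD163 was well above background in 0 of 4 YF and 1 of 3 contemporary cows. The median of the list was 0.15 without cow 1128. Of 14 granulocyte genes, 11 were higher, with a median of 0.46. It was 0.01 without cow 1129 and 0.77 without cow 1128. The deviations of this list were 0.10, -0.20 and 1.24 in contemporary cows. PRG3, of eosinophil granules, measured -8.17, -7.76 and -2.54 in them and -4.83, -3.18, -2.73 and -2.61 in YF, so that cows 1068 and 1128 were below the other 5. B and plasma cell genes had a median of 0.11 over 8 members, mast cell genes -0.22 over 8, and chemokines and cytokines 0.25 over 31. Without cow 1068 the mast cell median was 0.04, the chemokine median 0.11 and the B and plasma cell median 0.50, and without YF 1127 the last was -0.25. CCL25, a chemokine of gut-homing lymphocytes, was lower without overlap, by -0.48 (SE 0.17). CFD, complement factor D, was the separated member of the 30 complement and coagulation genes, against 0.865% of all transcripts in that direction. It measured 2.06, 1.83 and 2.13 in contemporary cows against 1.28, 1.38, 1.41 and 0.96 in YF, a difference of 0.75 (SE 0.17). Of 41 interferon stimulated genes, 17 were higher, with a median of -0.04, and their direction turned with slide and with single YF. With slide as a block 37 of 41 were higher, with a median of 0.19, without YF 1070 30 of 41 (0.11), and without YF 1127 4 of 42 (-0.20). ISG15 and MX1, which interferon tau induces in pregnancy, differed by -0.01 (SE 0.50) and 0.07 (SE 0.43).

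Ciliated cell genes and immediate early genes had the largest list medians and the widest spread between cows. All 24 ciliated cell genes tested were higher, with a median of 0.61, but the YF themselves deviated by -0.90, 0.81, -1.38 and 1.53 and enclosed the contemporary cows, which lay between 0.05 and 1.04. Without YF 1072 the median was 0.23, without YF 1069 0.31, without YF 1127 1.02 and without contemporary cow 1068 1.01. FOXJ1, the master regulator of motile cilia, measured -4.58, -2.95, -4.89 and -2.73 in YF and -3.68, -2.68 and -3.03 in contemporary cows. The only member with an unadjusted p up to 0.05, against 1.29% of all transcripts in that direction, was CCNO. This cyclin, needed for centriole amplification, differed by 0.46 (SE 0.16). Immediate early genes, which respond within minutes to stress or growth factors and also to tissue handling, had a median of 0.58, with 21 of 23 higher and 0 at an unadjusted p of 0.05. Contemporary cow 1068 deviated by 2.33 and YF 1070 by 1.44. Without cow 1068 the median was -0.17, with 7 of 23 higher. It was 1.22 without cow 1128, 0.88 without cow 1129, 0.98 without YF 1070 and 1.19 on slide 2 alone. FOS measured 1.06, 5.49, 3.35 and 1.72 in YF and 6.73, 2.97 and 3.24 in contemporary cows. The part of this variation in the other results was not tested.

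Endothelial genes were higher in 18 of 18 members tested, with a median of 0.43. PLVAP, a protein of fenestrated capillaries, measured 1.92, 1.69, 1.92 and 1.22 in YF, 2.60, 2.36 and 2.66 in contemporary cows and 2.30 in cow 1111, a difference of 0.85 (SE 0.21). VWF and TIE1 did not overlap either, at 0.60 and 0.41, but only PLVAP had an unadjusted p up to 0.05. Of all transcripts, 1.51% lay above without overlap and 1.29% were higher at that p. The deviations were 0.80, 0.08 and 0.41 in contemporary cows and 0.32, 0.14, 0.12 and -0.49 in YF. Both ends bore on the median, which was 0.16 without cow 1068 and 0.23 without YF 1127. Erythrocyte genes varied between cows. HBB, beta globin, measured 1.39, -0.71 and 1.75 in contemporary cows and -0.38, -2.35, -1.44 and 0.18 in YF, a difference of 1.81 (SE 0.75), while HBA, alpha globin, differed by 0.23 (SE 0.24). The part of blood content in the endothelial and immune cell results was not tested. Epithelial, stromal fibroblast, smooth muscle and basement membrane genes had medians of 0.07, 0.15, 0.03 and -0.02, and none of their members tested had an unadjusted p up to 0.05. With slide as a block 23 of 24 epithelial genes were higher, with a median of 0.51, whereas without YF 1069 4 of 24 were, with a median of -0.28. The stromal median was 0.33 without YF 1069 and 0.01 without YF 1127. YF 1069 stood apart from the other 6 cows in the epithelial and stromal lists, with a deviation of -1.21 for epithelial and 0.70 for stromal fibroblast genes. The smooth muscle median was 0.22 with slide as a block, -0.21 without YF 1127 and -0.15 without cow 1068, and the basement membrane median was -0.19 without YF 1127 and 0.18 without YF 1069.

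**Figure D4:**
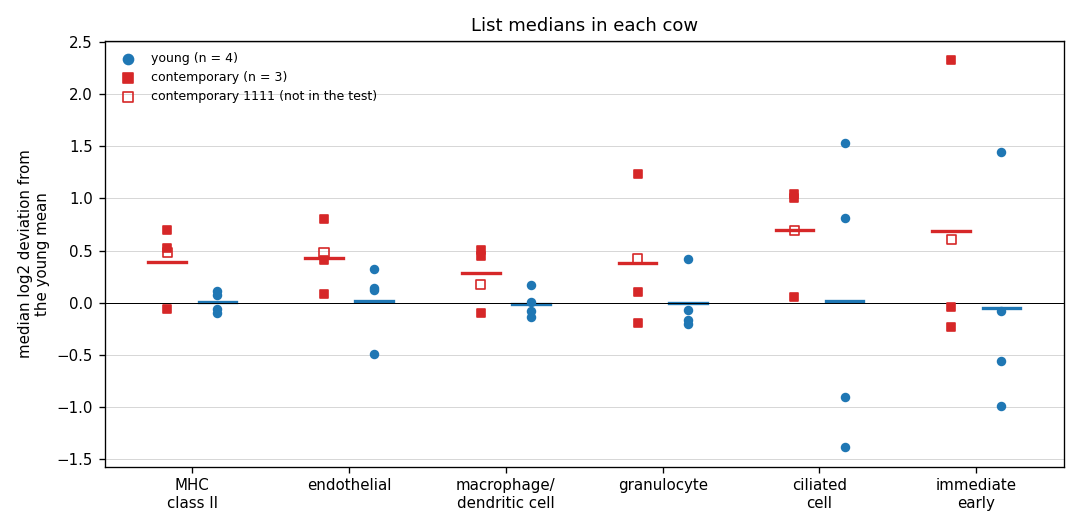
Median deviation of 6 gene lists in each cow from the mean of the YF (log2), with group means as lines and cow 1111 as open squares. MHC class II genes are at -0.06, 0.52 and 0.70 in contemporary cows 1068, 1128 and 1129, whereas in the ciliated cell and immediate early lists the YF alone span from -1.38 to 1.53 and from -0.99 to 1.44.

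The uterine genes that time luteolysis and receptivity showed few differences between the groups and large ones between contemporary cows. Of the 18 genes of the prostaglandin and oxytocin pathway tested, 9 were higher and 9 lower, with 0 at an unadjusted p of 0.05. OXTR, the oxytocin receptor, measured -4.98, 1.18 and -3.52 in contemporary cows, -4.81 in cow 1111 and -2.44, -2.10, -2.91 and -2.78 in YF. Cow 1128 was far above all YF and cows 1068 and 1129 below them, so the difference of 0.12 (SE 1.27) lies near no contemporary cow's own. PTGS2, the inducible cyclooxygenase, measured -2.41, 0.56 and -2.38 against -1.44, 0.71, -0.44 and -1.01, and PTGES, the prostaglandin E synthase, differed by 0.72 (SE 0.43). Cow 1128 also stood apart for CRIPTO, a co-receptor of nodal signals, at 4.72, 0.90 and 5.19 in the 3 contemporary cows against 2.60, 3.97, 4.70 and 4.92 in YF. For DKK1, an inhibitor of WNT signals, contemporary cows measured 1.41, -3.17 and -0.40 and YF 1.24, 0.20, 0.62 and -0.95. MSTN, myostatin, measured -5.55, -1.69 and -4.90 and -5.18, -4.42, -5.73 and -5.05, with cow 1128 the highest of the 7. CRIPTO, DKK1 and MSTN were picked out after their values were seen. The steroid receptors PGR and ESR1 differed by 0.28 (SE 0.32) and -0.30 (SE 0.25).

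Among secretory and transport genes of the endometrium, 17 of 29 were higher and 12 lower, with a median of 0.16. That median was -0.07 without YF 1127, with 14 of 30 higher, and -0.004 without cow 1128, with 14 of 29 higher. Of the 29, 2 had an unadjusted p up to 0.05, against 1.75% of all transcripts in that direction, both lower and both with overlap. SLC5A1, the sodium-glucose cotransporter, measured -6.08, -4.95, -4.95 and -6.00 in YF and -7.53, -6.22 and -6.08 in contemporary cows, a difference of -1.11 (SE 0.45), and cow 1111 was at -4.84. CST6, cystatin M, differed by -1.21 (SE 0.52), with cow 1111 at 3.56. In the IGF system, IGFBP1, the IGF-binding protein whose rise accompanies conceptus elongation in ruminants, measured -1.07, 1.08, 0.25 and -1.88 in YF and -4.48, -1.18 and -2.42 in contemporary cows. Its difference was -2.29 (SE 0.91) (limma unadjusted p = 0.0369, adjusted p = 1). Cow 1128 lay inside the YF, and cow 1111, at 0.53, lay near their top. IGFBP7 was higher by 0.60 (SE 0.21), and IGF1 and IGF2 differed by -0.41 (SE 0.42) and -0.04 (SE 0.28). A set of 12 genes had been selected for RT-qPCR. Of these, 11 were matched on the array by symbol. An unadjusted p up to 0.05 was reached by 2, against 3.03% of all transcripts. Both were lower, IGFBP1 and SMPDL3B, the latter a lipid-binding phosphodiesterase, at -1.29 (SE 0.55). They were selected on a contrast that shares the YF and are no independent choice.

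The remaining lists had medians near 0 over the 7 cows. Cytosolic ribosomal protein genes had a median of -0.01 over 46 members and a range of -0.24 to 0.11. With slide as a block 45 of them were lower and 1 higher, with a median of -0.18. Nuclear respiratory chain genes had a median of -0.04 over 41, which was 0.04 without YF 1127. Glutathione and antioxidant genes had a median of 0.00 over 40, heat shock genes 0.05 over 26, imprinted genes 0.10 over 22, and DNA methylation and X inactivation genes 0.05 over 15. Among 24 proliferation genes the median was 0.06. NUSAP1, a spindle protein, was the separated member, against 1.19% of all transcripts in that direction. It measured -1.94, -2.19, -1.75 and -2.02 in YF, -3.98, -2.71 and -2.92 in contemporary cows and -4.22 in cow 1111, a difference of -1.23 (SE 0.31). EIF2AK2, the interferon-induced kinase PKR, HSPA6, a heat shock protein, and AHSP, the stabiliser of alpha globin, were also lower without overlap, by -0.64, -0.53 and -0.52, while ERAP2, which trims peptides for class I, was higher by 0.44.

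**Figure D5:**
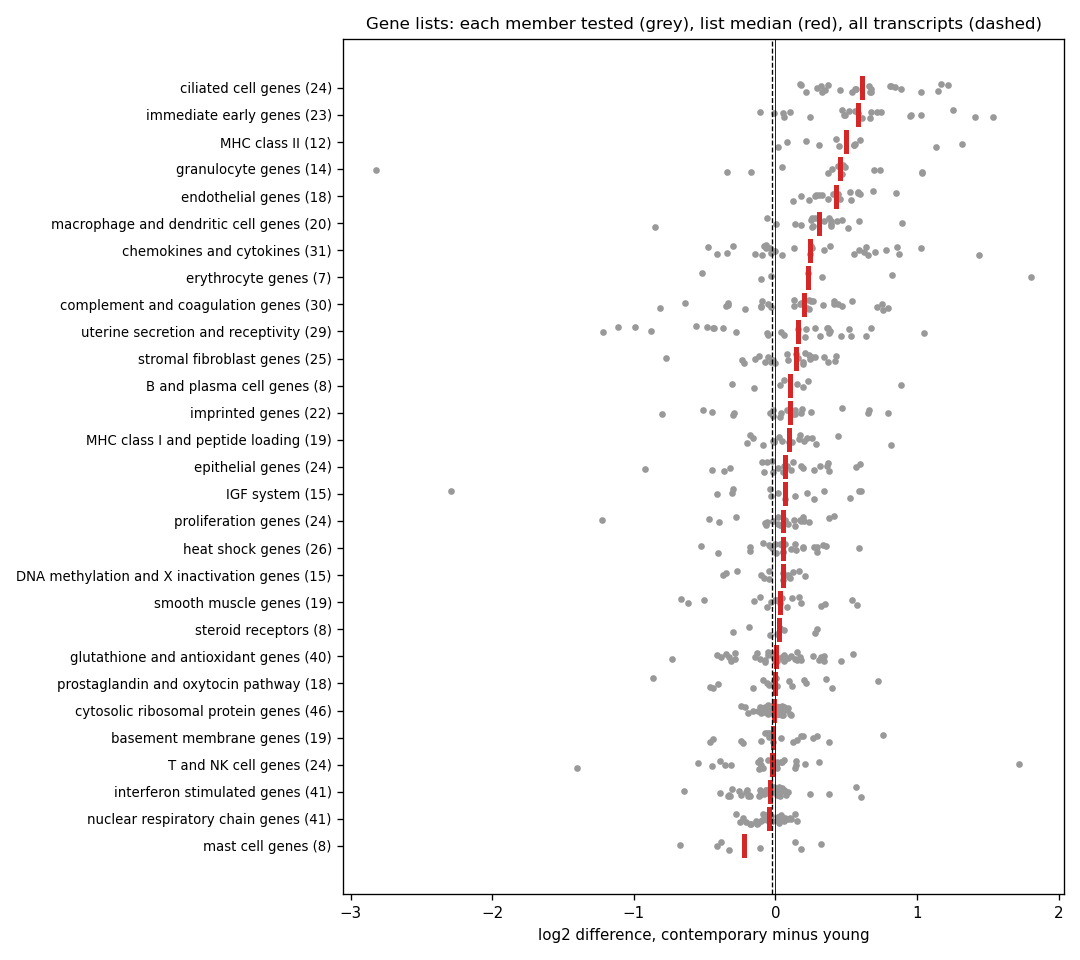
Difference of each member tested (grey points, log2, contemporary minus YF) in 29 gene lists, ordered by their median (red lines), with the number of members tested in brackets. The dashed line is the median of all transcripts, -0.02, and the list medians run from -0.22 for mast cell genes to 0.61 for ciliated cell genes.

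Slide and group overlapped in part. With slide as a block, 0 transcripts passed the adjusted threshold and the smallest adjusted p was 0.625, and on slide 2 alone, 3 contemporary cows against 2 YF, it was 0.999. GZMB differed by -3.80 and RXFP1 by 3.54 on slide 2 alone. Normexp background correction, which adds an offset of 50, shrank the differences of dim transcripts, to -1.74 for GZMB, -1.01 for KLRF2, 1.22 for RXFP1 and 0.77 for MGC157082.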

How the data were processed

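Endometrial RNA of 12 cows was measured on 1-colour Agilent arrays, 1 per cow, which the authors scanned and read with Agilent Feature Extraction. The deposited intensities are background-subtracted spot signals per the file headers, not normalised between arrays. Control spots and outlier-flagged spots were left out. The deposited intensity was put on the log2 scale here, each array's 75th percentile was subtracted, and probes were averaged per transcript of the UMD 3.1 array design. Symbols came from a RefSeq table by accession for 11495 transcripts and by synonym for 682, and otherwise from the array. The table was used for names only, because its assembly differs, and 5015 transcripts had no name.

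Groups came from the titles. Contemporary cow 1111 was excluded by the authors and entered alternatives only. limma 3.58.1 in R 4.3.3 (lmFit and eBayes, two-sided, Benjamini-Hochberg) compared 3 contemporary cows with 4 YF over 19993 transcripts that were well above background on every array of either group, and the fit was tested on simulated data. With 1 array per cow, p-values measure the spread between these cows. The YF were clones of 1 donor, so their spread does not include that between donor genotypes. Transcripts named were the 12 highest and 12 lowest with a symbol, without overlap and with an unadjusted p up to 0.05, the leading genes of 29 lists with up to 4 further such members of each, and the 12 genes measured by RT-qPCR. A gene of a list was its brightest transcript. Members and lists were chosen with earlier results of these data known. "At least" folds set the bright group against the dimmest signal called above background on each array. Alternatives changed the background correction (normexp), centring (median, quantile), dim filter, probe summary, slide, array weights, test and cows. Python 3.11 with pandas 2.3.3 and SciPy 1.17.1 made the tables.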

Additional observations from a re-analysis of the deposited data

Results flagged for a closer look

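In 4 of 129 results tested, 1 of the 4 YF lay far from the other 3 by Dixon's criterion, which chance meets in about 1 in 20 groups. B2M, the light chain of MHC class I, was 5.23 in YF 1127 and 4.86 to 4.89 in the others, and the difference between contemporary cows and YF was 0.29 without that cow. DCN, decorin of the stroma, was 4.24 in YF 1069 and 3.61 to 3.68 in the others, with a difference of 0.01 without it. The endothelial genes PECAM1 and VWF were both low in YF 1127. PECAM1 was -1.21 there and -0.55 to -0.45 in the other YF, with a difference of 0.27 without it. VWF was 0.38 there and 1.43 to 1.54 in the other YF, with a difference of 0.32 without it.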

How the results depend on the processing

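No paired analysis was possible because the animal numbers are not shared between the groups. The 0 transcripts at an adjusted p of 0.05 became 4 with cow 1111 included, 3 with cow 1111 and slide as a block, 2 with all 3 groups in one fit, 1 with array weights, 1 with quantile normalization, and 0 to 1 when a cow was left out, the single transcripts being ENSBTAT00000050266 without cow 1068 and KLRF2 without cow 1129. Both remaining contemporary cows were at background for KLRF2, so their closeness is that of background signal and the adjusted p of that call is not relied on. FCROS, which differs in test, transcripts (all 26323) and thresholds at once, made 1113 calls, which are not calls at an adjusted p. The other alternatives made no call at an adjusted p of 0.05. The 399 transcripts at an unadjusted p of 0.05 and 1.5-fold became 735 with array weights, 216 with normexp, and 377 to 732 when a cow was left out (732 without cow 1068, 659 without cow 1128 and 632 without YF 1069). The 765 transcripts without overlap became 450 with cow 1111 included, 3396 on slide 2 alone, and 1145 to 2674 when a cow was left out. Fewer cows leave fewer chances to overlap. Of the 24 highest and lowest transcripts, none reversed in 396 alternative values, and THBS4, AKNAD1, PATL2, PSPH and LY6G6C left the unadjusted threshold in 15 of them. The 45 named genes with an unadjusted p up to 0.05 gave 752 alternative values, of which 0 reversed and 119 left the threshold. Slide as a block or a single cow turned the direction of several list medians. Many were near 0, but that of immediate early genes went from 0.58 to -0.17 without cow 1068. Turns not given beside their lists include steroid receptors, from 0.02 to -0.04 with slide as a block. The IGF system went from 0.07 to -0.09 without YF 1127. The dimmest transcripts are limited by signal over background, where normexp made differences smaller.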
